A study of Homo sapiens with 29 samples.

Results

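The genes described here were those whose signal stood above its control in every ZNF148 knockdown comparison of the series. A member was a probe named by a RefSeq accession whose mean over the siZNF148 arrays was more than 0.8 above the siControl mean, on the log2 scale of the deposited matrix, in all 5 arms, and whose siZNF148 means were all above 6. An arm is a time and a medium in which both siRNAs were measured. The rule left out 7 genes by name, which removed 1 probe that met the numbers. It left 137 of 33080 RefSeq-named probes, which stood for 120 genes with a symbol and 3 probes without one. Of the genes, 108 had 1 member probe and 12 had several, and a gene is given below by its member probe with the highest mean signal. The members were thus chosen by their knockdown differences and siZNF148 levels. For that reason those differences are given as a description with no test, and the tests below compare groups that received the same siRNA.

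LHCN-M2 is a clonal line of human myoblasts, the precursors of muscle fibres, immortalized by telomerase and CDK4. Cells received siRNA against ZNF148 (siZNF148) or a nontargeting siRNA (siControl) at 20 nM, and their RNA was hybridized to 1-colour Agilent arrays. Growth media held both siRNAs for 24, 48 or 96 h, and DIFF media, the growth factor-depleted medium in which myoblasts differentiate, for 48 or 96 h. There were 29 arrays in 10 groups of 3 arrays, except that siControl at 96 h in growth media had 2. The media of the DIFF cultures were changed 2 days after transfection, so that a comparison of both media at the same hour may also differ in the time since transfection. The 24 h cultures were subconfluent and the others confluent. The labels do not say whether replicates were separate cultures, so that the spread between arrays may be in part technical.

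ZNF148 is a zinc finger protein that binds GC-rich promoter sequences and can repress or activate its target genes. Myoblasts deprived of growth factors leave the cell cycle, fuse and switch on the genes of the sarcomere, the contractile unit of muscle, under the control of MyoD-family and MEF2 transcription factors. In RNA from whole cultures, fewer cells of a type and less RNA per cell cannot be told apart.

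Both tested ZNF148 probes were lower on every siZNF148 array than on every siControl array of the same arm. Its brighter probe had a mean log2 signal of 8.66 ± 0.03 (SD, n = 3) with siControl and 7.13 ± 0.14 (SD, n = 3) with siZNF148 at 24 h. At 96 h in growth media the means were 9.08 ± 0.14 (SD, n = 2) and 6.78 ± 0.15 (SD, n = 3). The myoblast markers DES, MYOD1, MYF5, CDH15, NCAM1 and CHRNA1 were well above background on all 29 arrays, as were the fibroblast markers DCN, LUM, THY1, PDGFRA and COL3A1. The adipocyte markers LEP and PLIN1 and the fibroblast marker PI16 were on 0 arrays, whereas PPARG was on 29 and CEBPA on 15. The endothelial marker CDH5, the immune marker CD14 and the smooth muscle marker ACTG2 were on 29 and the immune marker PTPRC on 26. Each array had from 41.6% to 56.5% of its probes well above background, and the number of arrays limits the precision.

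The siControl array of replicate 1 at 48 h in growth media stood apart from its group. The median log2 signal of the member probes was 8.86 on it and 7.41 and 7.49 on the other siControl arrays of that group. It lay above both of them for 136 of the 137 members, a count whose share over all tested probes was not computed. It was more than 1 above their mean for 91 of the 137, against 6.85% of tested probes. For all 137 it lay below every siZNF148 array of that arm, an order that the rule favoured, so nothing is read from that count. The member median of replicate 1 minus the mean of the others was 1.28, against -0.06 over all tested probes. The counts of siControl comparisons below are given with it and without it.

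**Figure D1:**
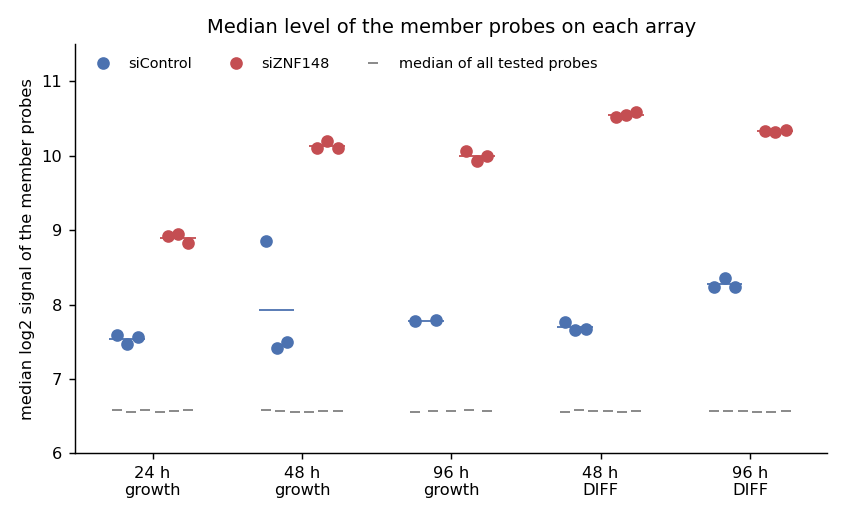
Median log2 signal of the 137 member probes on each array (points), with the group mean of these medians (lines) and the median of all tested probes on the same arrays (grey dashes). The x axis gives the arm. The siControl replicate 1 array at 48 h in growth media lies at 8.86, between the other siControl arrays of its group and the siZNF148 arrays.

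The members were expressed over a wide range. With siControl at 24 h their group means ran from 3.48 to 12.70 with a median of 7.58, and with siZNF148 from 6.07 to 13.57 with a median of 8.89. All 137 passed the filter on dim probes, which kept 38839 probes that were well above background on at least 2 arrays. The rule itself asked for high siZNF148 signals. All 137 were well above background on every siZNF148 array of every arm, while with siControl 122 to 133 of them were, depending on the group. For 7 members the siControl arrays of at least 1 arm were all not well above background, and their difference there is only a bound. No member probe was saturated on any array.

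The knockdown difference, siZNF148 minus siControl, had a median over the members of 1.11 at 24 h, 2.25 at 48 h and 2.42 at 96 h in growth media, and of 2.52 at 48 h and 1.70 at 96 h in DIFF media. In the matrix that the rule used, 6.04%, 13.6%, 13.9%, 16.9% and 13.2% of RefSeq-named probes exceeded 0.8 in these arms, and 0.417% met every numerical condition at once. The smallest difference of a member fell at 24 h for 90 of the 137, and the largest at 48 h in DIFF media for 56. For 128 the difference was larger at 48 h than at 24 h in growth media. Without siControl replicate 1 the median at 48 h in growth media was 2.68 and that count was 134. The share of members whose difference grew between 48 and 96 h in growth media turned on that array, with 71 of 137 when it was used and 26 when it was not. In 135 of the 137, every siZNF148 array lay above every siControl array in all 5 arms. Over all tested probes, 21.6%, 24.1%, 31.8%, 27.9% and 24.6% had siZNF148 arrays wholly above in these arms. Since the rule fixed these counts, nothing is read from them.

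**Figure D2:**
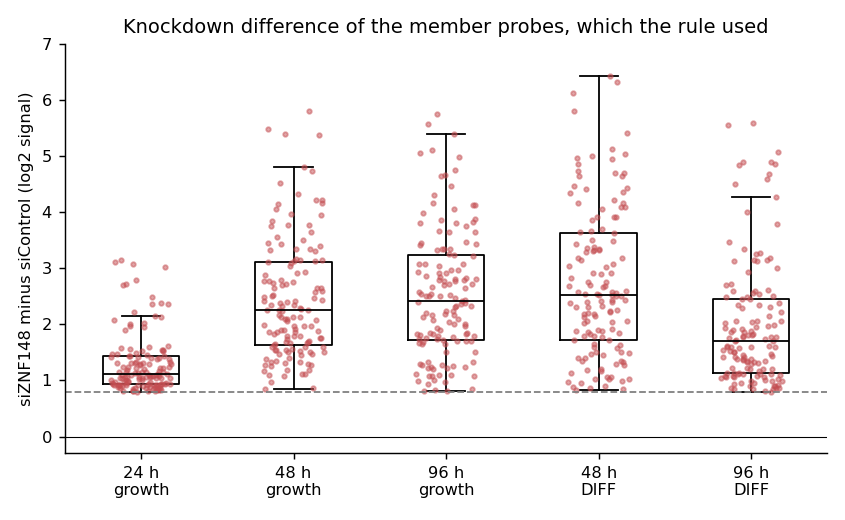
Knockdown difference (siZNF148 minus siControl, log2) of the 137 member probes (points) in each arm, with median, quartiles and whiskers to 1.5 times the interquartile range. The dashed line is the 0.8 of the rule, which chose the members. Differences at 24 h cluster near the line, with a median of 1.11, and the medians of the other arms lie between 1.70 and 2.52.

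By measured group means, the mean difference over the 5 arms was largest for PNMT, ANKRD1, KLHL30, LAD1, RNF144B, MLXIPL, VGLL2, CITED1, PODXL and ARG2. With arms at their bound where siControl was not well above background, PNMT had a mean of at least 3.95 in place of 4.84. It then came after ANKRD1 at 4.29, and MDFI, ACTC1 and LMO2, at 3.40, 3.36 and 3.35, came before ARG2. PNMT, the enzyme that turns noradrenaline into adrenaline, gave 4.07, 3.76 and 4.15 with siControl and 6.17, 6.30 and 6.19 with siZNF148 at 24 h. At 96 h in DIFF media its siControl arrays gave 2.19, 3.28 and 2.90, not well above background, and its siZNF148 arrays 8.22, 8.43 and 8.37. It was thus at least 3.22-fold higher with siZNF148 at 24 h and at least 18.7-fold higher at 96 h in DIFF media, where the bound sets each dim array at the lowest signal it could measure above background. At 48 h in growth media its siControl arrays read 6.60, 2.09 and 2.06, the first being replicate 1.

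ANKRD1, an ankyrin repeat protein of the sarcomere and the nucleus, was low at 24 h and high later. Its signals at 24 h were 6.33, 5.91 and 6.18 with siControl and 7.80, 7.59 and 7.90 with siZNF148. At 96 h in growth media they were 8.03 and 8.12 with siControl and 13.53, 13.38 and 13.48 with siZNF148, a difference of 5.39. At 96 h in DIFF media all 3 siControl arrays read 10.29 while the siZNF148 arrays read 13.42, 13.59 and 13.31. KLHL30, a member of the kelch-like family, followed the same order, with 7.26 and 7.23 with siControl and 12.31, 12.30 and 12.31 with siZNF148 at 96 h in growth media. In both genes the siControl arrays of DIFF media at 96 h stood between the siControl arrays of growth media and every siZNF148 array of that time. The rule favoured siControl below siZNF148, so nothing is read from that part of the order.

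RNF144B, a ubiquitin ligase, and MLXIPL, the glucose-responsive transcription factor ChREBP, had a different profile at 96 h. RNF144B gave 4.23 and 4.89 with siControl and 8.72, 8.64 and 8.71 with siZNF148 at 96 h in growth media, and 4.38, 4.66 and 4.43 against 9.36, 9.32 and 9.46 at 96 h in DIFF media. MLXIPL gave 5.35 and 5.33 against 9.44, 9.49 and 9.57, and 5.95, 5.21 and 5.84 against 10.26, 10.30 and 10.19. Their siControl arrays of both media lay close together at 96 h. They lay far below siZNF148 in either medium, an order that the rule favoured, so nothing is read from it. At 48 h RNF144B did fall in DIFF against growth media with siControl, by 2.00 (SE 0.40; limma, adjusted p = 0.000323), and it also fell without siControl replicate 1. MLXIPL had a change of -0.27 there that did not pass.

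LAD1, a basement membrane anchoring protein, had siControl signals of 6.57 and 6.88 and siZNF148 signals of 11.89, 11.81 and 11.78 at 96 h in growth media. VGLL2, a cofactor of TEAD transcription factors in muscle, had 7.07 and 7.24 against 12.22, 12.00 and 12.19. PODXL, a cell surface sialomucin, had 6.46 and 6.66 against 12.36, 12.37 and 12.22, the largest of its 5 differences at 5.76. The siRNA groups of these 3 genes did not overlap in any arm. The overlaps among the named members were those of ACTC1 at 24 h and of SCARNA23, a small Cajal body RNA, at 96 h in DIFF media.

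CITED1, a transcriptional coactivator that binds CBP and p300, and ARG2, the mitochondrial arginase, were dim without the knockdown. CITED1 gave 4.33, 3.48 and 3.79 with siControl and 9.30, 9.48 and 9.58 with siZNF148 at 96 h in DIFF media, and was at least 39.7-fold higher. ARG2 gave 2.22, 2.46 and 2.27 against 7.21, 7.22 and 7.06, at least 8.27-fold higher. Their siControl arrays in DIFF media were not well above background at either time.

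At the other end, the members just inside the threshold were MYBPHL, GSE1, SVIL-AS1, RMND5A and IDI1, with smallest matrix differences of 0.8087, 0.8076, 0.8068, 0.8025 and 0.8016. Just outside it lay ZNF641 at 0.796, TLNRD1 at 0.7917, MMAB at 0.786, RASA4B at 0.7847 and TRIB3 at 0.7824. IDI1, an enzyme of cholesterol synthesis, read 11.30, 11.45 and 11.39 with siControl and 12.21, 12.08 and 12.26 with siZNF148 at 96 h in DIFF media. MYBPHL, a myosin-binding protein of striated muscle, read 6.46, 6.58 and 6.57 against 7.36, 7.34 and 7.34 at 24 h, but 5.24 and 5.82 against 9.61, 9.58 and 9.59 at 96 h in growth media. A small difference in 1 arm thus went with a large one in another.

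By function, 73 of the 120 genes were placed in 7 groups, written after the values were seen, and the other 47 in none. The 7 genes of the contractile apparatus and muscle structure (ACTC1, TNNT2, MYBPH, MYBPHL, MYL10, ATP2A2 and ANKRD1) had median knockdown differences of 1.01 at 24 h, 4.05 at 48 h and 4.06 at 96 h in growth media, and 3.70 and 1.83 at 48 and 96 h in DIFF media. The 13 transcription factors and cofactors had medians of 1.44, 2.26, 2.78, 2.91 and 2.51 in the same order. The 9 growth factors, receptors and their regulators had medians of 1.05, 2.41, 2.79, 2.06 and 1.57, and the 11 adhesion, surface and matrix genes 0.92, 2.34, 2.66, 2.59 and 1.78. The 11 genes of small-molecule metabolism and amino acid transport had 1.25, 1.60, 2.01, 2.44 and 1.71, and the 8 genes of ubiquitin transfer, RNA control and cell death 1.20, 2.01, 1.95, 2.54 and 1.60. The 14 noncoding RNAs and pseudogenes had 0.95, 1.74, 1.91, 2.60 and 1.24.

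Few members belonged to lists of pathways drawn up for these cells, which were themselves written with earlier results known. Of 45 listed sarcomere genes 3 were members, and of 25 genes of excitation-contraction coupling 1 was. The Notch list gave HES6, the BMP and TGF-beta list ACVR2B and TGFB2, the Wnt list TCF7L1, the insulin and IGF list IGF1R and IGF2, and the list of collagens and matrix proteins COL4A1 and TNXB. No member was among the listed myogenic transcription factors, axon guidance genes, potassium and sodium channels, p53 targets, interferon-stimulated genes or any list of cell type markers. The lists were short, and a member in none of them may still belong to such a pathway. The members were 120 genes where 18432 were tested, so that a list of this size could hold few, and nothing is read from an absence.

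The lists as a whole moved to different extents in DIFF media at 96 h with siControl. Of the 42 tested sarcomere genes 23 rose and 1 fell, with a median change of 2.72, and of the 25 tested genes of excitation-contraction coupling 17 rose and 0 fell, with a median of 2.20. Of 19 myogenic transcription factors 6 rose and 1 fell, and of 24 Notch pathway genes also 6 and 1. The BMP and TGF-beta list had 2 of 42 that rose and 9 that fell, the Wnt list 5 and 5 of 42, the insulin and IGF list 4 and 4 of 27, and the collagens and matrix proteins 14 and 4 of 50. The axon guidance list had 10 that rose and 12 that fell of 55 with siControl, the channels 15 and 6 of 41, the p53 targets 3 and 1 of 24 and the interferon-stimulated genes 2 and 4 of 29.

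With siZNF148 the same change of medium raised 1 sarcomere gene and 2 genes of excitation-contraction coupling, and none of either list fell. Falls were seen for 17 of 42 in the BMP and TGF-beta list, 17 of 29 interferon-stimulated genes, 12 of 50 collagens and matrix proteins and 7 of 42 in the Wnt list, and none of these 4 lists had a gene that rose. The insulin and IGF list had 1 that rose and 4 that fell, axon guidance 2 and 6, the channels 2 and 5 and the Notch list 0 and 1. No listed myogenic transcription factor or p53 target passed.

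ACTC1, the cardiac actin that developing skeletal muscle also makes, had the largest change of the members in DIFF against growth media at 96 h with siControl. In growth media siControl arrays gave 5.38, 6.49 and 4.63 at 24 h, then 10.63, 4.89 and 5.11 after 48 h, then 6.98 on both arrays of 96 h. In DIFF media they gave 8.26, 8.06 and 7.35 after 48 h, then 10.69, 10.98 and 10.79 at 96 h. With siZNF148 it gave 6.47, 6.52 and 6.55 at 24 h, and between 11.53 and 12.57 in every later group. Its groups overlapped at 24 h, where 1 siControl array read 6.49, and in no later arm.

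TNNT2, the cardiac troponin T that immature skeletal muscle also expresses, gave 12.63 and 12.98 with siControl and 17.23, 16.99 and 17.13 with siZNF148 at 96 h in growth media. MYBPH, a myosin-binding protein of skeletal muscle, gave 15.03 and 15.02 against 18.67, 18.73 and 18.67. ATP2A2, the calcium pump SERCA2 of the sarcoplasmic reticulum, gave 10.66 and 10.45 against 13.14, 13.20 and 13.26, and its other tested probe was also higher with siZNF148 in every arm. HES6, a bHLH protein that opposes HES1, gave 12.71 and 12.72 against 16.85, 16.88 and 16.83.

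Among the signalling members, TGFB2, a TGF-beta ligand, gave 5.08 and 5.18 with siControl and 8.55, 8.45 and 8.70 with siZNF148 at 96 h in growth media. ACVR2B, a receptor of activins and myostatin, gave 6.54 and 6.37 against 9.0, 9.10 and 8.87, and IGF2, a growth factor made by differentiating myoblasts, 10.55 and 10.58 against 13.49, 13.12 and 13.50. IGF1R, through which IGF2 signals, had the narrower gap of 9.62 and 9.72 against 10.44, 10.61 and 10.44. TCF7L1, a transcription factor of the Wnt pathway, gave 6.09 and 6.37 against 9.10, 8.85 and 9.06. COL4A1, a basement membrane collagen, gave 10.39 and 10.42 against 12.88, 12.80 and 12.94.

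**Figure D3:**
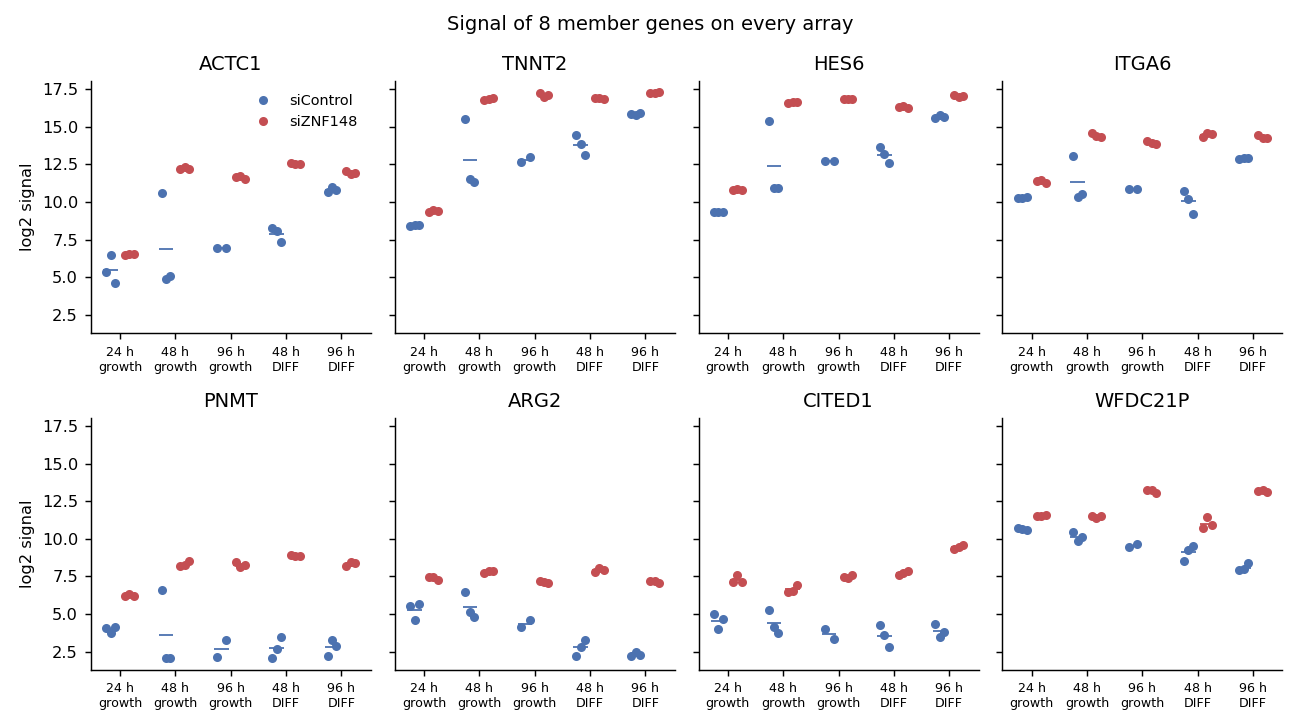
Log2 signal of 8 member genes on every array, by arm, with siControl in blue, siZNF148 in red and lines at the group means. In ACTC1, TNNT2, HES6 and ITGA6 the siControl arrays of DIFF media at 96 h lie above those of growth media at 96 h, while in PNMT, ARG2, CITED1 and WFDC21P they lie close to them or below.

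Other probes of the same genes did not all share the pattern. The 36 other tested probes of 30 member genes were higher with siZNF148 in all 5 arms in 18 cases, but exceeded 0.8 in 4 or 5 arms in only 11. In 5 cases they were lower in 3 arms or more. These 5 belonged to CEP44, EPB41L5, GSG1, TCOF1 and TNXB. Another GSG1 probe, with a mean signal of 12.25, differed by -0.49 at 24 h and -0.04 at 48 h in growth media, where the member probe differed by 0.91 and 2.77. A brighter IGF2 probe, with a mean signal of 17.59, differed by 0.41 at 24 h and 0.28 at 96 h in DIFF media, and by 0.95 to 1.62 in the other arms. A brighter LSS probe, at 11.8, differed by -0.33 to 0.42. The pattern is thus that of the member probes and not of every transcript the array measures.

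The first tested question was whether DIFF media moved the same genes in cells that kept ZNF148. At 96 h with siControl, 47 of the 137 member probes (34.3%) rose in DIFF against growth media and 10 (7.3%) fell, where 6.25% of all tested probes rose and 6.73% fell. The call was a Benjamini-Hochberg adjusted p under 0.05 over all 38839 tested probes, in limma with a mean for each of the 10 groups, and a change over 2-fold. The median change was 0.60 over the members and 0.00 over all tested probes. By genes, 38 of 120 rose, 8 fell and 74 did not pass, where 6.79% of all tested genes rose and 8.24% fell. Replicate 1 at 48 h is in no group of this comparison, but enters it through the spread that limma shares over all groups. In the fit without it 52 members (38%) rose and 10 (7.3%) fell, where 6.59% and 6.75% of tested probes did.

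The rises were led by ACTC1, TNNT2, KLHL30, HES6 and MDFI. ACTC1 went from 6.98 and 6.98 to 10.69, 10.98 and 10.79, a rise of 3.84 ± 0.98 (SE; limma, adjusted p = 0.00375). TNNT2 went from 12.63 and 12.98 to 15.88, 15.80 and 15.93, a rise of 3.07 ± 0.71 (SE; limma, adjusted p = 0.00161). HES6 went from 12.71 and 12.72 to 15.56, 15.80 and 15.67, a rise of 2.96 ± 0.75 (SE; limma, adjusted p = 0.00351). In each of the 3 genes the media did not overlap. Every siControl DIFF array lay below every siZNF148 array of the same time, an order that the rule favoured, so nothing is read from it.

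KLHL30 went from 7.26 and 7.23 to 10.14, 10.27 and 10.39, a rise of 3.02 ± 0.98 (SE; limma, adjusted p = 0.0206). Its call was lost when either growth media array was left out, with adjusted p = 0.0908 and 0.0909, and the remaining array was then assumed to vary like the other groups. MDFI, an inhibitor of MyoD-family factors, was not well above background in growth media, at 4.74 and 3.67, and gave 7.06, 7.27 and 6.92 in DIFF media. Its measured signal was 7.35-fold higher in DIFF media (limma, adjusted p = 0.000423). The bound used for dim arrays did not lower this fold, which rests on growth media signals not well above background and is uncertain.

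Of the contractile group 5 of 7 genes rose at 96 h and 1 fell. MYBPH rose by 2.64, ATP2A2 by 1.28 and MYBPHL by 1.02, while ANKRD1 had a change of 2.22 ± 1.02 (SE; limma, adjusted p = 0.105) that did not pass. In the fit without replicate 1 ANKRD1 did rise, with the same change and an SE of 0.27 (limma, adjusted p = 9.09e-07), so that 6 of 7 rose. TRIL, a regulator of Toll-like receptor signalling, had a change of 1.39 that likewise passed only in that fit (limma, adjusted p = 0.0842 and 4.36e-05). Among the adhesion, surface and matrix genes 5 of 11 rose, and none of them fell. They included ITGA6, the alpha subunit of a laminin receptor, which went from 10.90 and 10.86 to 12.89, 12.90 and 12.92. In the signalling group 3 of 9 genes rose, TGFB2 by 2.17, PKDCC, a secreted tyrosine kinase, by 1.60 and IGF2 by 1.49, while F2R, a thrombin receptor, fell by 1.33 (SE 0.21; limma, adjusted p = 2.43e-05), and ACVR2B and IGF1R had changes of 0.40 and 0.03 that did not pass. Of the 11 metabolic genes none rose and 2 fell, and of the 13 transcription factors and cofactors 4 rose and 1 fell.

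The falls were led by GSG1, MYL10, ARG2, PEG10 and WFDC21P. GSG1, a germ cell-associated gene, went from 9.94 and 9.98 to 7.53, 7.53 and 7.86, and fell by 2.32 on the log2 scale (SE 0.35; limma, adjusted p = 1.57e-05). MYL10, a myosin light chain, went from 11.80 and 11.90 to 9.54, 9.81 and 9.81, and fell by 2.13 (SE 0.58; limma, adjusted p = 0.00582). PEG10, an imprinted gene derived from a retrotransposon, went from 11.81 and 11.68 to 10.24, 9.99 and 10.61, and fell by 1.47 (SE 0.35; limma, adjusted p = 0.00218). In these genes the DIFF media arrays were the low ones with siControl. Every siZNF148 array of 96 h lay above all 5 siControl arrays in GSG1 and PEG10, while the siZNF148 arrays of MYL10 in DIFF media, at 11.52, 11.55 and 11.57, lay below its siControl arrays in growth media. The rule favoured siZNF148 above siControl in the same medium, so nothing is read from the order in GSG1 and PEG10.

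WFDC21P, a transcribed pseudogene, went from 9.43 and 9.64 to 7.92, 7.98 and 8.37, and fell by 1.44 (SE 0.22; limma, adjusted p = 2.41e-05). ARG2 went from 4.14 and 4.58 to values not well above background, and was at least 1.18-fold lower in DIFF media (limma, adjusted p = 9.58e-05). The members that siZNF148 raised were therefore not all ones that DIFF media raised at 96 h with siControl.

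Marker lists of other cell types moved with the same comparison. From growth to DIFF media at 96 h with siControl, the log2 summed signal of the 8 tested myoblast and muscle markers went from between 17.73 and 17.78 to between 18.61 and 18.71. That of the 6 fibroblast markers went from between 17.09 and 17.27 to between 16.11 and 16.22, that of the 5 smooth muscle markers from between 13.21 and 13.23 to between 6.96 and 8.03, and that of the 4 immune markers from between 11.73 and 11.82 to between 7.78 and 7.84. The sums of the 3 adipocyte markers went from between 9.22 and 9.34 to between 8.03 and 8.18, and those of the 6 endothelial markers from between 9.56 and 9.66 to between 9.0 and 9.09. The part of these shifts in the members' changes was not tested. Both siControl growth media arrays at 96 h were on 1 slide, which held no siControl DIFF array of that time, so slide and medium cannot be told apart within slides.

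At 48 h the answer turned on siControl replicate 1. With all arrays 11 members (8.03%) rose in DIFF against growth media and 31 (22.6%) fell, where 6.86% of tested probes rose and 6.59% fell. Without that array, in a fit of the other 28 chosen after the data were seen, 41 (29.9%) rose and 14 (10.2%) fell, where 7.74% and 7.12% of tested probes did. The member median was -0.12 with the array and 0.25 without it. Leaving out siControl replicate 2 or 3 in growth media instead gave 4 and 7 that rose and 34 and 37 that fell. Pairs of arrays on 1 slide gave member medians of 0.19, -1.33 and 0.27, the second being the slide of replicate 1.

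The genes called in both fits at 48 h were fewer. Over all tested genes 7.75% rose and 8.21% fell with every array used. All 11 genes that rose with every array used also rose without replicate 1, and they included ARHGAP45, TUBB2B, a beta tubulin, MAF, a transcription factor, IGF2 and DACT1, a regulator of Wnt signalling. ARHGAP45 gave 6.75, 5.03 and 4.87 in growth media and 7.01, 7.49 and 7.59 in DIFF media, a rise of 1.81 ± 0.29 (SE; limma, adjusted p = 2.75e-05). MAF gave 9.04, 8.06 and 7.99 and 9.35, 9.64 and 9.72, a rise of 1.20 ± 0.17 (SE; limma, adjusted p = 4.65e-06). In both genes replicate 1 was the highest growth media array and still lay below every DIFF array.

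C1orf226, an open reading frame gene, and GPRC5B, an orphan receptor, rose by 1.65 and 1.61 with all arrays, and TUBB2B by 1.34. Without replicate 1 these values were 2.35, 2.28 and 1.94. C1orf226 gave 7.01, 4.84 and 4.95 in growth media and 7.36, 7.25 and 7.13 in DIFF media, and GPRC5B gave 11.15, 9.18 and 9.09 and 11.59, 11.40 and 11.26. TUBB2B gave 10.67, 8.74 and 9.01 and 10.81, 10.78 and 10.85, and fell short of 2-fold without growth media replicate 2, at 0.97.

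Of the 28 genes that fell at 48 h with all arrays, 13 also fell without replicate 1. They included SNAR-G1, a small noncoding RNA, INMT, a methyltransferase of small amines, DDAH1, an enzyme that degrades dimethylarginine, ASNS, asparagine synthetase, and MYL10. SNAR-G1 gave 8.41, 7.71 and 7.69 in growth media and 5.15, 4.74 and 5.08 in DIFF media, and fell by 2.94 (SE 0.19; limma, adjusted p = 5.3e-11) with all arrays and by 2.71 without replicate 1. INMT gave 8.78, 7.59 and 7.72 and 6.22, 6.09 and 5.44, and fell by 2.11 and 1.73. MYL10 gave 12.97, 9.59 and 9.63 and 8.49, 8.09 and 7.72, and fell by 2.63 and 1.51. The media did not overlap in any of the 3.

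LINC02709, a long noncoding RNA, gave 10.62, 7.71 and 7.84 in growth media and 6.45, 6.66 and 5.89 in DIFF media, and fell by 2.39 and, without replicate 1, by 1.44. ARG2 was not well above background in DIFF media and was at least 2.83-fold lower there (limma, adjusted p = 4.52e-07).

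Contractile genes rose at 48 h only when replicate 1 was left out. With all arrays none of the 7 rose and MYL10 fell, and without it 4 rose, among them ACTC1 by 2.89, MYBPH by 2.61 and TNNT2 by 2.40. LAD1 had the largest rise of that fit, 3.27. In growth media at 48 h LAD1 gave 11, 4.67 and 5.28, and in DIFF media 7.91, 8.34 and 8.49, so that replicate 1 lay above and the other growth media arrays below every DIFF array.

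**Figure D4:**
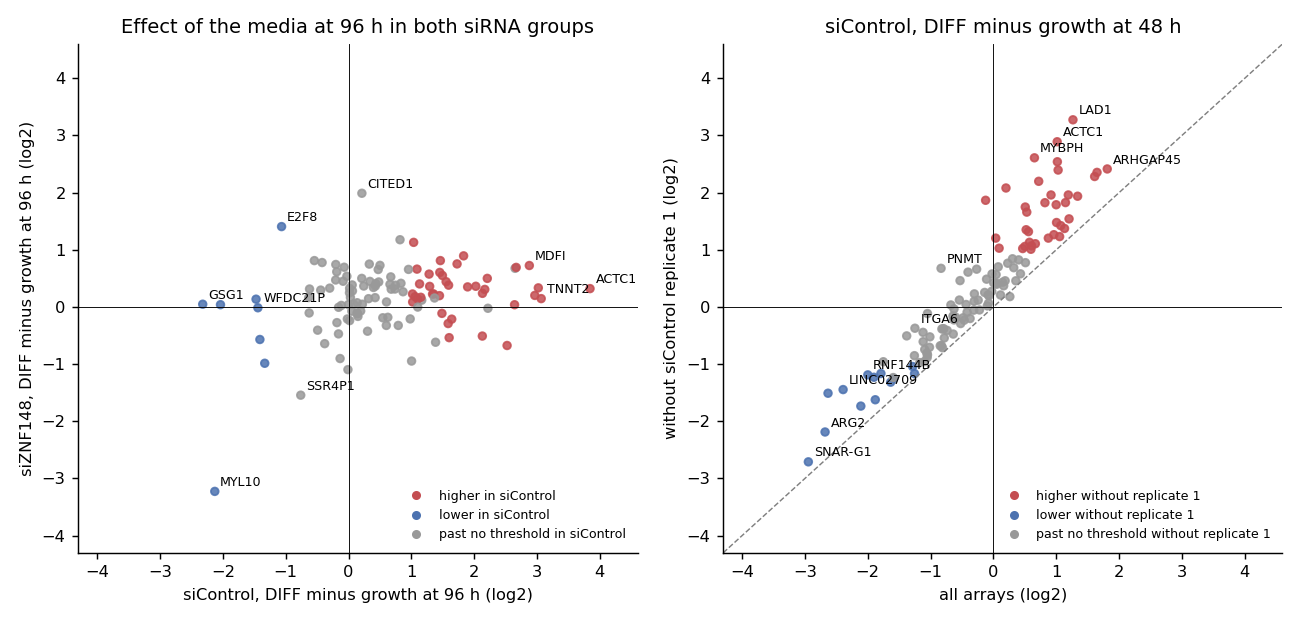
Change from growth to DIFF media (log2) of the 120 named member genes. Left, siControl (x) against siZNF148 (y) at 96 h, coloured by the siControl call, where siControl values run from -2.32 to 3.84 and siZNF148 values other than that of MYL10 (-3.23) lie between -1.54 and 1.99. Right, siControl at 48 h with all arrays (x) and without replicate 1 (y), coloured by the call without it, with the line of equality dashed.

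The change of the media effect between the times was tested as a contrast of contrasts in siControl. The effect was larger at 96 than at 48 h for 36 members (26.3%) and smaller for 0, where 3.93% and 4.19% of tested probes were. At an unadjusted p under 0.05, 60 were larger and 4 smaller, as were 14.8% and 17.1% of tested probes. Without siControl replicate 1 at 48 h the counts were 32 larger and 7 smaller, where 3.4% and 3.71% of tested probes were, and the median over members was 0.69 with it and 0.22 without it. ITGA6 had the largest increase, of 3.27 ± 0.67 (SE; limma, adjusted p = 0.000924), and of 2.40 without replicate 1. It gave 13.07, 10.33 and 10.54 in growth media and 10.75, 10.21 and 9.23 in DIFF media at 48 h. At 96 h it gave 10.90 and 10.86 in growth media and 12.89, 12.90 and 12.92 in DIFF media, so that the DIFF arrays were low at 48 h and high at 96 h.

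The next question was whether the members changed with time in the same medium. In DIFF media with siControl, 45 members (32.8%) rose between 48 and 96 h and 4 (2.92%) fell, where 4.7% of tested probes rose and 3.71% fell. The median was 0.56 over the members and -0.05 over all tested probes. Growth media arrays entered this contrast only through the spread shared by all groups, and in the fit without replicate 1 at 48 h 50 members (36.5%) rose and 4 (2.92%) fell, where 4.97% and 3.74% of tested probes did. Of the contractile genes 5 rose with all arrays and 6 without replicate 1. ANKRD1, LAD1 and TRIL, with changes of 2.06, 1.13 and 1.17, passed only without it (limma, adjusted p = 6.49e-07, 0.000334 and 9.16e-05, against 0.0945, 0.404 and 0.109 with all arrays). Within slides the member median was 0.66 on 1 slide and 0.56 on another.

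The marker lists of cell types moved over the same hours. In DIFF media with siControl the log2 summed signal of the myoblast and muscle markers went from between 18.24 and 18.32 at 48 h to between 18.61 and 18.71 at 96 h, and that of the fibroblast markers from between 17.04 and 17.11 to between 16.11 and 16.22. The adipocyte sums went from between 8.79 and 8.91 to between 8.03 and 8.18, the endothelial sums from between 9.25 and 9.42 to between 9.0 and 9.09, the immune sums from between 7.94 and 8.85 to between 7.78 and 7.84, and the smooth muscle sums from between 8.06 and 8.30 to between 6.96 and 8.03. Their part in the members' changes was not tested.

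KLHL30 rose most, from 7.64, 7.47 and 6.52 to 10.14, 10.27 and 10.39, by 3.06 ± 0.88 (SE; limma, adjusted p = 0.00979). ITGA6 rose by 2.84 ± 0.44 (SE; limma, adjusted p = 3.04e-05). INMT went from 6.22, 6.09 and 5.44 to 8.60, 8.71 and 8.79, a rise of 2.78 ± 0.21 (SE; limma, adjusted p = 2.94e-09). In these 3 genes no array of 48 h reached any array of 96 h. INMT, which DIFF media lowered at 48 h, was near its growth media level again at 96 h, where it gave 8.37 and 8.54.

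ACTC1 rose by 2.93 and MYBPH by 2.55. The ACTC1 call was lost without DIFF replicate 3 at 48 h (adjusted p = 0.0535) and the MYBPH call without any of 5 DIFF arrays (adjusted p from 0.0615 to 0.138). Those fits kept replicate 1 of growth media at 48 h, which is in neither group. In the fit without it both passed with the same changes. Their SEs were 0.29 and 0.23 there, in place of 0.88 and 0.90 (limma, adjusted p = 6.58e-08 and 2.12e-08). MYBPH gave 15.84, 15.29 and 14.22 at 48 h and 17.53, 17.79 and 17.69 at 96 h. PEG10 fell by 1.75 ± 0.31 (SE; limma, adjusted p = 0.00015), from 11.89, 12.01 and 12.18, and GSG1 by 1.55, from 8.76, 9.23 and 9.59 to 7.53, 7.53 and 7.86. WFDC21P fell by 1.00, close to the 2-fold threshold, and lost its call when any of 4 arrays was left out.

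In growth media with siControl, limma called 0 members between 48 and 96 h, where 0.317% of tested probes rose and 0.036% fell. At an unadjusted p under 0.05 there were 23, of which 3 were higher and 20 lower at 96 h, where 7.45% and 5.15% of tested probes were, and the methods' t-test also called 0. Leaving out replicate 2 or 3 at 48 h gave 2 and 5 that fell, and leaving out replicate 1 at 96 h gave 1 that rose. Without replicate 1 at 48 h, 15 members (10.9%) rose and 0 fell, where 1.17% and 0.144% of tested probes did. Of the contractile group 5 genes rose in that fit and 0 with all arrays.

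In cells with siZNF148 the medium moved few members and few of all tested probes. The member counts were so small that nothing is read from the difference in shares. At 48 h 5 members (3.65%) rose in DIFF against growth media and 5 (3.65%) fell, where 1.1% of tested probes rose and 2.1% fell. At 96 h 4 (2.92%) rose and 4 (2.92%) fell, where 1.47% and 4% of tested probes did. By genes 5 rose and 4 fell at 48 h, and 4 rose and 3 fell at 96 h, since MYL10 had 2 member probes. The member medians were 0.13 and 0.20, and those of all tested probes 0.04 and -0.01. Whether the media effect differed between the siRNAs was not tested, since that difference is made of the knockdown differences that chose the members.

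CITED1 and E2F8, an atypical E2F that represses cell cycle genes, rose at both times. CITED1 gave 7.43, 7.41 and 7.56 in growth media and 9.30, 9.48 and 9.58 in DIFF media at 96 h, a rise of 1.99 ± 0.35 (SE; limma, adjusted p = 0.000222). E2F8 gave 9.38, 9.45 and 9.27 and 10.84, 10.66 and 10.82, a rise of 1.41 ± 0.24 (SE; limma, adjusted p = 0.000139). With siControl E2F8 fell by 1.07 in DIFF media at 96 h, from 7.36 and 7.30 to 6.03, 6.40 and 6.37. E2F8 thus moved in opposite directions with the medium under the 2 siRNAs, a difference that was not tested. PMAIP1, the apoptosis regulator NOXA, rose by 1.13 with siZNF148 at 96 h (SE 0.185; limma, adjusted p = 0.000105) and by 1.04 with siControl.

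At 48 h the rises with siZNF148 were few, and without DIFF replicate 3 only 1 member rose and 5 fell. ADAMTS9, a matrix metalloprotease, rose by 1.35 ± 0.36 (SE; limma, adjusted p = 0.0131), from 8.86, 8.79 and 8.66 to 10.10, 10.03 and 10.22. VAV3 rose by 1.15, LMO2, a LIM-only cofactor, by 1.04, CITED1 by 1.09 and E2F8 by 1.00. LMO2 lost its call when any 1 of the 6 arrays was left out, VAV3 and CITED1 when any 1 of 5 was and E2F8 when any 1 of 3 was. Those fits kept siControl replicate 1 of 48 h in growth media, which enters through the shared spread. In the fit without it all 5 of these rises passed. LMO2 had the same change there, with an SE of 0.08 in place of 0.32 (limma, adjusted p = 5.74e-09 against 0.0357). In that fit 7 members (5.11%) rose and 5 (3.65%) fell, where 1.3% and 2.23% of tested probes did. OLMALINC, a long noncoding RNA, rose by 1.18 at 96 h and lost its call without any 1 of 3 arrays. It passed in the fit without siControl replicate 1 (limma, adjusted p = 0.00841).

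The members that fell with DIFF media under siZNF148 were MYL10, SSR4P1, a pseudogene, COL4A1 and, at 48 h, LAPTM5, a lysosomal membrane protein. MYL10 went from 14.84, 14.74 and 14.74 to 11.52, 11.55 and 11.57 at 96 h, and fell by 3.23 (SE 0.51; limma, adjusted p = 7.64e-05). It fell in DIFF media with either siRNA at both times, and was the only one of the 7 contractile genes to fall in any of these 4 comparisons. SSR4P1 fell by 1.54 (SE 0.13; limma, adjusted p = 2.49e-08) and COL4A1 by 1.10 (SE 0.20; limma, adjusted p = 0.000327) at 96 h. LAPTM5 went from 7.92, 7.91 and 7.95 to 5.99, 6.13 and 6.08 at 48 h.

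With siZNF148 few members changed with time. In growth media their shares were near those of all tested probes, on counts so small that nothing is read from them, and in DIFF media they were above them. Between 48 and 96 h 6 (4.38%) rose and 4 (2.92%) fell in growth media, where 3.47% of tested probes rose and 1.57% fell. In DIFF media 11 (8.03%) rose and 9 (6.57%) fell, where 3.74% and 3.47% did. In both media FXYD6, MSC, SIPA1L2, TNXB and WFDC21P rose, and GSG1, LINC02709 and OLMALINC fell. Over the same times 29 of 29 tested interferon-stimulated genes, a list with 0 members, rose with siZNF148 in both media, with medians of 3.69 in growth and 2.93 in DIFF media.

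WFDC21P went from 11.53, 11.38 and 11.54 to 13.26, 13.23 and 13.06 in growth media, a rise of 1.70 ± 0.20 (SE; limma, adjusted p = 1.73e-06), and by 2.16 ± 0.20 (SE; limma, adjusted p = 4.06e-08) in DIFF media. With siControl it fell by 1.00 in DIFF media over the same hours. FXYD6, a regulator of the sodium pump, rose by 1.89 and 2.00, and MSC, the bHLH repressor musculin, by 1.23 and 1.26. BAMBI, a pseudoreceptor that dampens TGF-beta signalling, rose by 1.46 ± 0.19 (SE; limma, adjusted p = 6.31e-06) in growth media, from 8.16, 8.28 and 7.88 to 9.47, 9.69 and 9.54, and its change of 0.94 in DIFF media did not pass.

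LINC02709 went from 12.34, 12.27 and 12.26 to 10.10, 10.24 and 10.28 in growth media and fell by 2.08 (SE 0.44; limma, adjusted p = 0.00127), and by 1.71 in DIFF media. OLMALINC fell by 1.94 and 1.72, and GSG1 by 1.26 and 1.51. LGALSL, a galectin-like protein, fell by 1.55 and C3orf52, a TPA-induced membrane protein, by 1.22 in DIFF media, the latter losing its call without any 1 of the 6 arrays. In the fit without siControl replicate 1 at 48 h C3orf52 passed with the same change (SE 0.11; limma, adjusted p = 5.97e-08), where its SE had been 0.40. CITED1 and LAPTM5 rose by 1.73 and 1.40 in DIFF media. The contractile genes other than MYBPHL, which rose by 1.26 in DIFF media, did not pass with time under siZNF148.

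Other members passed the adjusted p and the 2-fold threshold together in none of 3 siControl comparisons. In 39 of the 120 genes (32.5%) no call was made for DIFF against growth media at 48 or 96 h or for 96 against 48 h in DIFF media, with or without replicate 1, as was so for 73% of all tested genes. They included PNMT, CITED1, MLXIPL, LMO2, LRRC1, ACVR2B, TCF7L1, BAMBI, FXYD6, ITGB8, IGF1R, MYO10, FBXW7, LSS, IDI1 and TXNRD1. PNMT had changes of 0.08 in DIFF media at 96 h and 0.04 with time in DIFF media, on arrays that were not well above background. LRRC1, a leucine-rich repeat protein, had changes of 0.02 and 0.13, and IGF1R of 0.03 and -0.16. In 10 genes (8.33%) the adjusted p was also at or above 0.05 in all of these fits. The share over all tested genes was not computed, so nothing is read from this count. Other genes passed the adjusted p with changes under 2-fold. With all arrays they included LSS, lanosterol synthase, with a change of -0.86 with time in DIFF media (SE 0.17; limma, adjusted p = 0.000296), and IDI1, with a change of 0.83 in DIFF media at 96 h (SE 0.22; limma, adjusted p = 0.00539). At 48 h IGF1R had a media change of 0.43 (SE 0.11; limma, adjusted p = 0.00291). A call that was not made does not show that the levels were equal.

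Promoter windows in RefSeq (GRCh38.p14), from 250 bases before to 50 bases after the gene start, were matched to 90 of the 120 genes, using the first window listed for a gene. Their median GC content was 66.7%, against 63.3% over the 14129 genes with a tested probe and a window, and 58.3% over all 27305 genes with one. The E-box CAGCTG, which reads the same on both strands and is bound by MyoD-family factors, was in the windows of 24 of the 90 members (26.7%), and in 17.8% of those of tested genes and 17.7% of all. The C-rich motif CCTCCCC, on either strand, was in 36 (40%), against 28.5% and 23.4%. The shorter CACCC, which can overlap it, was in 64.4%, against 62.7% and 58.9%, and the TATA box TATAAA in 12.2%, against 8.3% and 12%. These matches describe letters and were not tested, and the C-rich motif goes with the GC content.

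The 250 bases before the start are printed for ACTC1, TNNT2, KLHL30 and HES6, the genes among the 5 largest rises in DIFF media at 96 h with siControl that had a matched window. MYBPH, a further contractile gene that rose there, was added after its matches were seen. The sequences are written 5′ to 3′ on the gene's strand, with CAGCTG in capitals. ACTC1, for which the first of 3 listed windows is printed, is at chr15:34795550-34795799, minus strand, TNNT2 is at chr1:201377681-201377930, minus strand, MYBPH at chr1:203175827-203176076, minus strand, HES6 at chr2:238240039-238240288, minus strand, and KLHL30 at chr2:238138418-238138667, plus strand, all in GRCh38.p14.
ACTC1: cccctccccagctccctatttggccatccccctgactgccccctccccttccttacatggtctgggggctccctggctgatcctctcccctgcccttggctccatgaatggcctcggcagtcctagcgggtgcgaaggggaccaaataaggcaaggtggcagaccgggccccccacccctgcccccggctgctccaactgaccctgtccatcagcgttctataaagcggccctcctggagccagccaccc
TNNT2: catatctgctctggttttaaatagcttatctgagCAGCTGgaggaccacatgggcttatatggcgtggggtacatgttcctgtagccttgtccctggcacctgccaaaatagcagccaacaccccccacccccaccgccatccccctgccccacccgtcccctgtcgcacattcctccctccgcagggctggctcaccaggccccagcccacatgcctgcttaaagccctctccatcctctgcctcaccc
MYBPH: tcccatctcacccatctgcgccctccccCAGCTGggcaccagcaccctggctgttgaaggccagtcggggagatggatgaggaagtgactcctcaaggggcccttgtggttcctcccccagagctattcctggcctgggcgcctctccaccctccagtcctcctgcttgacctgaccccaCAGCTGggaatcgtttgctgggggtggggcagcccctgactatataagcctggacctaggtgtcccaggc
HES6: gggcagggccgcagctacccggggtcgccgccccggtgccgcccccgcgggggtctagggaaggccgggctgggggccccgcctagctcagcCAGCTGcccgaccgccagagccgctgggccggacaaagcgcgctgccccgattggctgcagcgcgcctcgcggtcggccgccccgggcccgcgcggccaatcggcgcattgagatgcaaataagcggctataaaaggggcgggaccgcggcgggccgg
KLHL30: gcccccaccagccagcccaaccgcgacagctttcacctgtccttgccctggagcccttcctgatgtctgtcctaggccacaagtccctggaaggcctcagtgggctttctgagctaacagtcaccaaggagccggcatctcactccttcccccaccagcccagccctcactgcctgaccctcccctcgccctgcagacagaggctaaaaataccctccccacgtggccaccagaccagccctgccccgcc
MYBPH held 2 copies of the E-box, TNNT2 and HES6 1 copy each and KLHL30 none. ACTC1 held none in any of its 3 windows, and ANKRD1, whose sequence is not printed, none in its 1. The members lay on 23 chromosomes, with at most 16 on 1 of them. In RefSeq gene order 5 pairs had 3 or fewer genes between them. TNNT2 and LAD1 were direct neighbours, as were TGFB2 and TGFB2-AS1, and ARID3A and WDR18. The others were FOXP4-AS1 with MDFI and TSPAN12 with ING3. TGFB2-AS1 rose by 2.67 in DIFF media at 96 h with siControl beside its neighbour TGFB2 at 2.17, and LAD1 had a change of 2.65 beside TNNT2 at 3.07. The LAD1 change did not pass with all arrays (SE 1.02; limma, adjusted p = 0.0512) and did without replicate 1 (SE 0.25; limma, adjusted p = 2.41e-08).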

How the data were processed

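Gene expression was measured on 29 arrays of 1 colour. The authors deposited scanner files with intensity values made by Agilent Feature Extraction 10.7.3.1, per the file headers, and a matrix of log2 values that they had quantile-normalized. The deposited intensity used was the processed, background-subtracted signal. It was read without control and outlier spots, averaged per probe, set to log2 and quantile-normalized. On each array it correlated with the deposited log2 column at r of at least 0.9951. The matrix served for the membership rule and as an alternative, and the rule picked the same 137 probes from the scanner values. RefSeq accessions were matched to symbols for 31104 of 33080 probes.

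A probe entered the test, in limma 3.58.1 (R 4.3.3), if 2 arrays or more had it well above background, with Benjamini-Hochberg adjustment over all such probes. The fit was tested on simulated data. For a group not well above background on any array, a fold was bounded by the lowest signal well above background on each of its arrays. The measured signal was kept where it was higher than that. Samples were grouped by the labels. Same-numbered arrays of compared groups had correlations of their deviations between -0.078 and 0.07, so the numbers were not used as pairs. All 24 h arrays were on a slide and scan of their own.

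The members and lists were chosen with earlier results of these data known. Genes given array by array were the 10 with the largest mean knockdown difference, the 5 nearest the threshold inside and outside it, up to 5 rises and falls per contrast and the members of the pathway lists. A few others were chosen after their values were seen. Alternatives covered the scaling, background correction, filter, variance model, blocks, arrays left out, threshold and the methods' t-test. Promoter windows came from RefSeq (GRCh38.p14) through Python 3.11.15.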

Additional observations from a re-analysis of the deposited data

Results flagged for a closer look

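The change of the siControl media effect between 48 and 96 h was picked out because it was tested as a difference between the times, and 36 member probes passed. The formal check for single outlying arrays applies to groups of 4 or more and was not run. The array of siControl replicate 1 at 48 h in growth media is described in the report. It was more than 1 above the mean of the others of its group for 91 of 137 members, against 6.85% of tested probes. The 5 genes with the largest change were ITGA6 at 3.27, SCARNA23 at 2.96, LINC02709 at 2.89, C3orf52 at 2.55 and MIR503HG at 2.54 on the log2 scale. Without siControl replicate 1 at 48 h in growth media their values were 2.40, 2.60, 1.94, 1.67 and 1.52. SCARNA23 gave 9.17, 5.79 and 5.86 on the siControl arrays of DIFF media at 96 h, so that 1 array set its value. Its limma call was lost without either siControl array of growth media at 96 h (adjusted p = 0.0545 and 0.053).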

How the results depend on the processing

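Of the single-gene values under alternatives 1309 kept their call and 87 lost it, and no call changed sign. The count for siControl media at 48 h, 42, was 16 with normexp background correction, 15 with only the arrays compared, 22 by the methods' t-test unadjusted and 9 after Benjamini-Hochberg. The balance of that comparison did turn. It had 11 higher and 31 lower with all arrays, 41 and 14 without siControl replicate 1 at 48 h in growth media, and 31 and 17 of 48 with array weights. Without replicate 1 its member median went from -0.12 to 0.25 and that of siControl time in growth media from -0.15 to 0.28. Time in DIFF media with siControl gave 32 with normexp in place of 49, and the change of the media effect gave 12 in place of 36 with only the arrays compared. Time in growth media with siControl gave 2 with array weights and 1 with no fold threshold in place of 0. Without a fold threshold the siZNF148 counts were 21 and 26 for media at 48 and 96 h, and 26 and 40 for time in growth and DIFF media. The number of member probes was 80 with normexp, 78 and 257 for a difference above 1 and above 0.6, and 260 with no minimum level.

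Leaving out single arrays of the groups compared gave 36 to 55 members for siControl media at 48 h and 49 to 56 at 96 h, 6 to 9 and 7 to 9 for siZNF148 media, 0 to 15 and 41 to 53 for siControl time in growth and DIFF media, 9 to 12 and 16 to 20 for siZNF148 time, 29 to 52 for the change of the media effect and 133 to 143 member probes. Without siControl replicate 1 at 48 h in growth media, the comparisons that do not hold it gave 62 for siControl media at 96 h, 12 and 8 for siZNF148 media, 54 for siControl time in DIFF media, and 11 and 21 for siZNF148 time. With the replicate block the counts in the order of the report were 42, 59, 10, 8, 0, 49, 10 and 20, and 40 for the change of the media effect, and it moved no count past 1.5 times. The slide as a fixed term and the fit of 28 arrays were chosen after seeing the data. Members not well above background have only bounds. The causes of these shifts were not tested.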
